A study of Rattus norvegicus with 7 samples.

Results

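Leukocyte adhesion and myeloid restraint molecules are 9 genes whose products sit on the cell surface. Some hold blood leukocytes in place, 1 holds microglia and macrophages in check, and others are adhesion proteins of neurons. They are Icam1, Vcam1, Cd44, Sele, Selp, Pvr, Cd200, Thy1 and Ncam1. They were chosen by gene symbol, with all 16 probe sets that the platform annotation gives to these symbols, from 4736 genes with a symbol of their own on the array. All 9 were on the array. The genes were proposed with the signals of these same 7 arrays in view, so their levels and changes are given as a description, without a test.

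Adhesion of leukocytes is a relay. Selectins on activated endothelium slow a rolling leukocyte, after which the immunoglobulin-family molecules ICAM-1 and VCAM-1 bind leukocyte integrins and stop it. Astrocytes also carry ICAM-1 and VCAM-1, and their genes are textbook targets of NF-kB under inflammatory cytokines. CD200 works the other way, since it is a neuronal surface protein that quiets myeloid cells bearing its receptor. Thy-1 and NCAM are adhesion proteins of neurons.

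The cells were primary hippocampal cultures from Wistar rats labelled 17-day-old, given grape seed extract, a polyphenol-rich plant extract, for 24 h. The doses were 0, 1 and 10 µg/ml for neurons. Astrocytes were given these and also 100 µg/ml. All cultures were kept in DMEM with glutamine, N1 supplement, penicillin and streptomycin. Each combination had 1 Affymetrix array, 7 in all, which leaves single doses without an error and limits the precision of every comparison. Nothing in the labels says that the cultures of one cell type came from separate animals.

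The signals are the authors' scaled intensities on a linear scale. Their 2%-trimmed means lay between 500.731 and 500.874 on all arrays, and the median signal between 65.4 and 87.7. Before log2 was taken, lower signals were set to a floor of 17.9, the 25th percentile. A gene is represented by its brightest probe set, and probe sets with a mean above 79.9, the median of all signals, within a cell type entered its comparisons. Of the 9 genes, 7 passed in neurons and 6 in astrocytes. Of the neuron markers on the array, 7 of the 7 bright enough to be tested were higher in neurons in limma at adjusted p below 0.05. Of 8 tested astrocyte markers, 3 were lower in neurons and 2 higher, the glutamate transporter Slc1a3 and the water channel Aqp4. The astrocyte arrays also carried microglial, oligodendrocyte and fibroblast markers, of which 7 of 7, 4 of 4 and 8 of 9 tested were lower in neurons. The neuron markers Nefl, Snap25 and Nell2 entered through the neuron arrays alone. The oligodendrocyte markers Mbp and Mobp and the fibroblast markers Lum, Aldh1a2 and Crabp2 entered through the astrocyte arrays alone. These marker counts are therefore only a description. Over all probe sets tested, 24.9% were higher in neurons and 19.7% lower. In such mixed cultures, fewer cells of a type and less RNA per cell cannot be told apart.

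The adhesion molecules with the highest signals were Icam1 and Vcam1, and in astrocytes they parted at the highest dose. Icam1, the ligand of the leukocyte integrin LFA-1, had signals of 1830, 2017, 6359 and 16694 in astrocytes at 0, 1, 10 and 100 µg/ml. Its signal was thus highest at 100 µg/ml, and the arrays at 0 and 1 µg/ml were close to each other. Vcam1, the ligand of the integrin VLA-4, had 827, 1559, 5461 and 1609 on the same arrays. It was highest at 10 µg/ml, and the array at 100 µg/ml lay close to that at 1 µg/ml.

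Promoter sequences were available for 6 of the 9 genes in the RefSeq table of build GRCr8, as windows of 300 bases from 250 before to 50 after the start that the table uses. The windows of Icam1 (chr8:27829595-27829894, plus strand) and Vcam1 (chr2:206742734-206743033, minus strand) are shown because these genes had the highest signals and different dose patterns. That of Pvr (chr1:88704592-88704891, minus strand) is shown because Pvr had the largest fold at 100 µg/ml. Each is written 5′ to 3′ in the gene's direction. Capitals mark, in Vcam1, a match to the kappa-B motif of NF-kB, and in Icam1 a match to GGAANTTCC, a symmetric variant of it.
Icam1: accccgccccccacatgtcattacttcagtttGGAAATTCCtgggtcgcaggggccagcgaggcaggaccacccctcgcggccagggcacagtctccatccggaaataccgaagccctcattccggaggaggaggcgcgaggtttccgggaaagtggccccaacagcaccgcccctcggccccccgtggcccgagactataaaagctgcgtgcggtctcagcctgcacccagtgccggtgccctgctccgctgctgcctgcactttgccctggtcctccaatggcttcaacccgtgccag
Vcam1: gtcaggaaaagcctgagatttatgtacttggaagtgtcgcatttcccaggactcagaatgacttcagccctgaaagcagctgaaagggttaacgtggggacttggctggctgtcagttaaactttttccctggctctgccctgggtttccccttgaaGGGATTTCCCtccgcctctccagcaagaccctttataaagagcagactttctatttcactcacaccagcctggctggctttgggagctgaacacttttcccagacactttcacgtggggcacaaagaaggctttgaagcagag
Pvr: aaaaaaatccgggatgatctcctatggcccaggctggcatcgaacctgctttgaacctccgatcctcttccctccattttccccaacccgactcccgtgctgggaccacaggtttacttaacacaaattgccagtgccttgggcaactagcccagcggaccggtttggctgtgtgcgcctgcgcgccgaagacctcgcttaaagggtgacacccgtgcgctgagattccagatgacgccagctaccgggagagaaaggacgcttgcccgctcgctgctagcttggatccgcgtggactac

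The kappa-B motif was found in 1 of the 6 promoters, that of Vcam1, with a match starting 93 bases before the start (GGGATTTCCC). It is held by 7.51% of all 33469 promoters of the same length. The Vcam1 window also holds gggtttcccc upstream of its match, with t where the motif searched asks for A or G. That stretch was not counted, and its share of all promoters was not computed. GGAANTTCC, chosen after the sequences were seen, was found in Icam1 alone of the 6, 218 bases before the start, and in 0.872% of all promoters. A match to the interferon-stimulated response element (GAAANNGAAA) stood 46 bases before the start of Vcam1 on the opposite strand, against 3.92% of all promoters. The TATA box (TATAAA) was found in Icam1, 53 bases before the start, and in Vcam1, where matches at 62 and 60 bases before it overlap on opposite strands. Of all promoters 14.2% hold one. The AP-1 motif (TGANTCA, 7.33% of promoters) and the cyclic AMP response element (TGACGTCA, 1.83%) were found in none of the 6. Both strands were searched. A match is only a description of these letters, and no match says only that they are not in this window.

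Against untreated astrocytes, Icam1 was 3.47-fold higher at 10 µg/ml and 9.12-fold higher at 100 µg/ml. Its second probe set, which is dimmer, had 238, 246, 921 and 3879 and stood at 3.86-fold and 16.3-fold. Both probe sets of Icam1 therefore ordered the 4 doses in the same way. At 100 µg/ml the median of all 4252 probe sets tested was -0.26 log2. Relative to that median, Icam1 was higher by 3.45 log2, against 3.19 on the deposited scale.

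Vcam1 was 6.60-fold higher than in untreated astrocytes at 10 µg/ml and 1.95-fold higher at 100 µg/ml. Its second probe set had 519, 629, 3362 and 980, or 6.47-fold and 1.89-fold at these doses. Between the highest doses the genes moved in opposite directions: at 100 compared with 10 µg/ml, Icam1 stood at 1.39 log2 and Vcam1 at -1.76 log2 (2.07 and -1.78 at the other probe sets). Of the 6 genes bright enough in astrocytes, Icam1 and Pvr were at least 2-fold higher at 100 than at 10 µg/ml, and Vcam1 and Ncam1 at least 2-fold lower. Over all probe sets 5.1% were higher and 16% lower by that much.

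**Figure D1:**
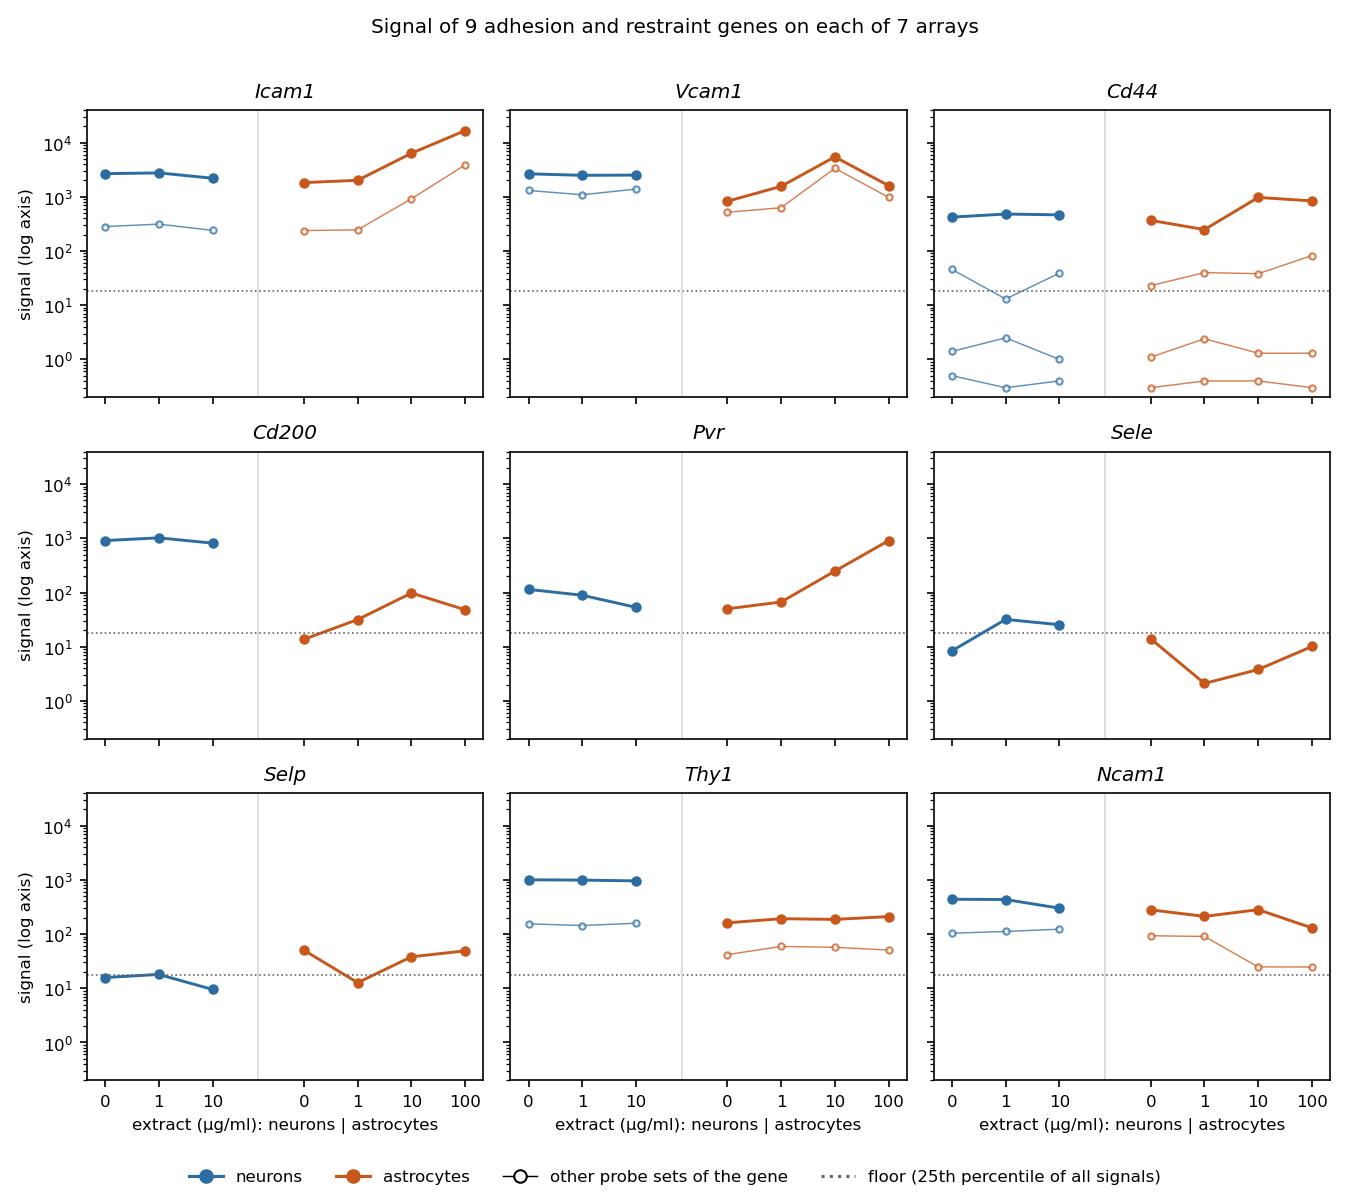
Signal (log axis) of each of the 9 genes on the 7 arrays, by extract dose in µg/ml, with neurons in blue on the left and astrocytes in orange on the right of each panel; filled points are the brightest probe set, open points the other probe sets, and the dotted line is the floor of 17.9. Icam1 and Pvr climb to 16694 and 907 in astrocytes at 100 µg/ml, Vcam1 peaks at 5461 at 10 µg/ml, and the blue lines of Icam1, Vcam1 and Cd44 are nearly flat.

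Pvr, the poliovirus receptor homologue, is a nectin-like molecule that binds receptors of natural killer and T cells. It had 50.1, 66.9, 248 and 907 in astrocytes at 0, 1, 10 and 100 µg/ml. This was 4.96-fold at 10 µg/ml and 18.1-fold at 100 µg/ml, the largest fold among the 9 genes, and 4.44 log2 relative to the median of all probe sets. In neurons Pvr had 114, 89.1 and 53.4 at 0, 1 and 10 µg/ml. The neuron signals were thus lower at each higher dose, and that at 10 µg/ml was 0.467 of the untreated one (-1.10 log2). Pvr has a single probe set, whose signals in neurons lay near the median of all signals. After quantile normalization its change at 10 µg/ml in neurons no longer reached 2-fold.

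Cd44, the receptor for the matrix sugar hyaluronan, had 368, 249, 973 and 841 in astrocytes at 0, 1, 10 and 100 µg/ml. Both higher doses lay above both lower ones, at 2.65-fold and 2.29-fold over the untreated array. The array at 1 µg/ml was the lowest, at 0.676 of the untreated one. Its other 3 probe sets were dim. One of them had 22.9, 40.0, 38.1 and 82.5 in astrocytes, and the remaining pair never exceeded 2.5 on any array. For Cd44 the doses therefore rest on 1 of 4 probe sets.

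Cd200, the restraint signal to myeloid cells, was a dim gene in astrocytes, with 13.7, 31.7, 97.9 and 48.1 at 0, 1, 10 and 100 µg/ml. All treated arrays lay above the untreated one, which was under the floor. Cd200 was thus at least 5.47-fold higher at 10 µg/ml and at least 2.69-fold higher at 100 µg/ml. The mean signal in astrocytes did not pass the filter, so Cd200 is not among the counts for astrocytes.

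Thy1 and Ncam1, the neuronal adhesion molecules, were not at least 2-fold higher in astrocytes at any dose. Thy1 had 161, 192, 186 and 210 at 0, 1, 10 and 100 µg/ml, with all treated arrays slightly above the untreated one. Ncam1 had 280, 212, 282 and 130, and only the array at 100 µg/ml stood apart, at -1.11 log2. Relative to the median of all probe sets this was -0.85 log2, within 2-fold. The second probe set of Ncam1 had 93.2, 90.3, 24.8 and 24.7, lower by more than 2-fold at both 10 and 100 µg/ml, so the probe sets of Ncam1 disagreed at 10 µg/ml.

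The endothelial selectins gave low signals throughout. Sele, E-selectin, had 8.4, 31.9 and 25.5 on the neuron arrays at 0, 1 and 10 µg/ml, and between 2.1 and 14.0 on those of astrocytes. Selp, P-selectin, had 15.8, 18.0 and 9.5 in neurons and 50.3, 12.7, 38.1 and 49.0 in astrocytes at the 4 doses. Sele was at or under the floor on 5 of 7 arrays and Selp on 3 of 7. Neither passed the signal filter in either cell type, and no change is read from them. Of 13 listed endothelial markers 5 were on the array, with a summed signal of 413 to 617 on the neuron arrays and 267 to 351 on the astrocyte arrays. Pecam1, an endothelial adhesion molecule, lay between 28.6 and 50.2 and Vwf, the von Willebrand factor, between 33.2 and 75.8 on all arrays. The VEGF receptor genes were brighter: Kdr had 293, 210 and 183 in neurons and 30.2 to 47.7 on the astrocyte arrays, higher in neurons in limma at adjusted p below 0.05, and Flt1 lay between 85.3 and 158 on all arrays. Nos3, the endothelial nitric oxide synthase, lay between 50.8 and 92.9.

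In the count at each dose, 4 of the 6 genes passing in astrocytes were at least 2-fold higher at 10 µg/ml than in untreated cells (Icam1, Vcam1, Cd44 and Pvr) and 0 were lower, where 4.3% of 4252 probe sets were higher and 2.21% lower. At 100 µg/ml 3 were at least 2-fold higher and 1 lower, against 6.63% and 19% of all probe sets on the deposited scale. Relative to the median, 4 were higher and 0 lower, against 9.41% and 13.5%. At 1 µg/ml 0 of the 6 reached 2-fold either way, where 2% of all did. The median log2 change of these genes was 0.20, 1.60 and 1.08 at 1, 10 and 100 µg/ml, where that of all probe sets was -0.01, -0.10 and -0.26. In astrocytes Pvr lay above 79.9 only at 10 and 100 µg/ml, so it entered these counts through the arrays where it was high. All arrays were in view when the genes were chosen, so nothing is read from the counts.

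**Figure D2:**
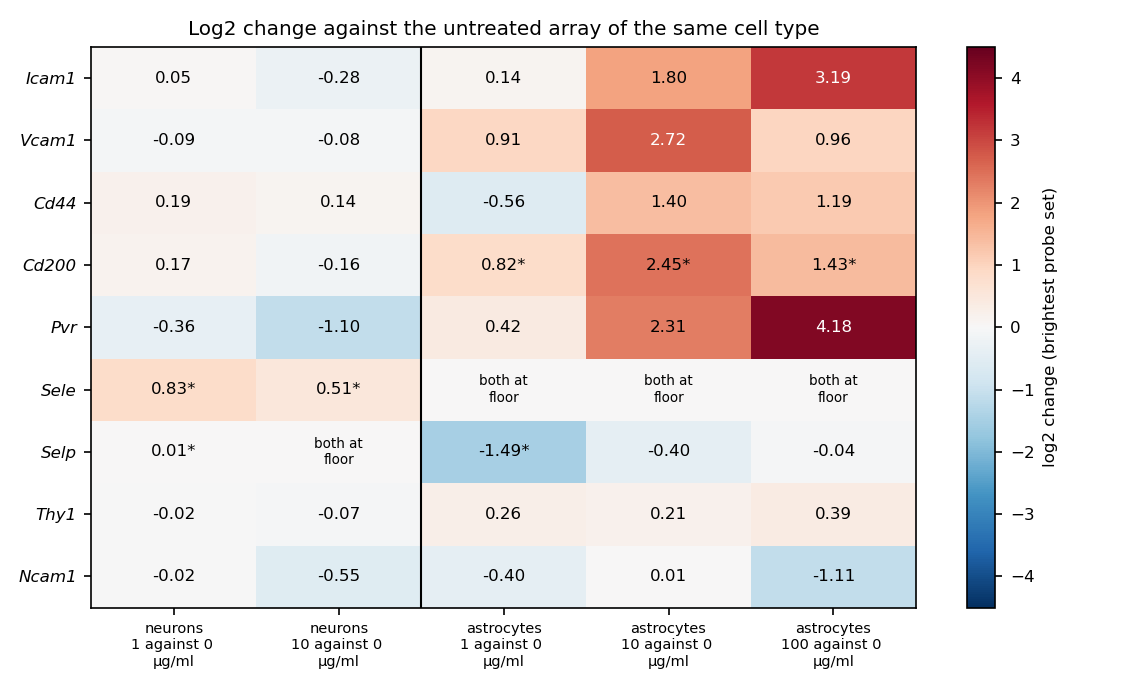
Log2 change of the brightest probe set of each of the 9 genes (rows) on each treated array against the untreated array of the same cell type (columns, neurons left and astrocytes right), on the deposited scale; an asterisk marks a signal raised to the floor, and cells with both signals at or under the floor have no value. In astrocytes Pvr reaches 4.18 and Icam1 3.19 at 100 µg/ml and Vcam1 2.72 at 10 µg/ml, while in neurons Pvr at 10 µg/ml (-1.10) is the only value beyond 1.

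In neurons the adhesion genes differed little between doses. Icam1 had 2673, 2763 and 2204 at 0, 1 and 10 µg/ml, and Vcam1 2657, 2492 and 2517. Cd44 had 422, 481 and 464, and Cd200 911, 1022 and 816. The largest change among these was -0.28 log2, for Icam1 at 10 µg/ml. Ncam1 had 439, 434 and 301, and its array at 10 µg/ml was the lowest (-0.55 log2), whereas its second probe set had 104, 112 and 123. Of the 7 genes passing in neurons, 0 reached 2-fold at 1 µg/ml, where 0.561% of 4453 probe sets did, and at 10 µg/ml Pvr alone did, lower, where 0.472% of probe sets were lower by that much. In neurons Pvr lay above 79.9 only at 0 and 1 µg/ml, so it entered these counts through the arrays where it was higher. The median log2 change of the 7 was -0.02 and -0.16, and that of all probe sets 0.00 and -0.01. Among 4453 probe sets 0.292% were at least 2-fold higher at 10 µg/ml.

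Cell types were set side by side at the 3 shared doses. Cd200 averaged 916 ± 103 in neurons and 47.8 ± 44.3 in astrocytes (SD, n = 3 each). The difference of the mean log2 signals was 4.58, a lower bound since 1 astrocyte signal was raised to the floor. The folds that follow are also of mean log2 signals. Thy1 averaged 985 ± 23.6 in neurons and 180 ± 16.6 in astrocytes, 5.49-fold, with 2.93-fold at its second probe set. Ncam1 averaged 391 ± 78.4 in neurons and 258 ± 39.9 in astrocytes, 1.51-fold, with 1.90-fold at its second probe set. At 10 µg/ml its brightest probe set had 301 in neurons and 282 in astrocytes, only 0.09 log2 apart. For these 3 genes all neuron arrays lay above all astrocyte arrays. Of the 7 genes in this comparison, 3 thus did not overlap and were higher in neurons, and 0 did not overlap and were lower, where 32.2% and 24.6% of 4736 probe sets did. Cd200 entered this comparison through the neuron arrays alone, where it was high, so nothing is read from these counts. The SD here holds the effect of dose, since the 3 arrays of a cell type differ in dose.

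For Icam1, Vcam1, Pvr and Cd44 the order of the cell types depended on the dose. In untreated cultures Vcam1 had 2657 in neurons and 827 in astrocytes (1.68 log2), and Pvr 114 in neurons and 50.1 in astrocytes (1.19 log2). Icam1 had 2673 in untreated neurons and 1830 in untreated astrocytes. At 10 µg/ml each of the 4 was lower in neurons, by -1.12 log2 for Vcam1, -2.22 for Pvr, -1.53 for Icam1 and -1.07 for Cd44. Cd200 narrowed without crossing, at 5.67 log2 or more untreated and 3.06 at 10 µg/ml. The mean difference over the shared doses was 0.41 log2 for Vcam1, -0.18 for Icam1, -0.20 for Pvr and 0.03 for Cd44, with overlapping arrays.

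**Figure D3:**
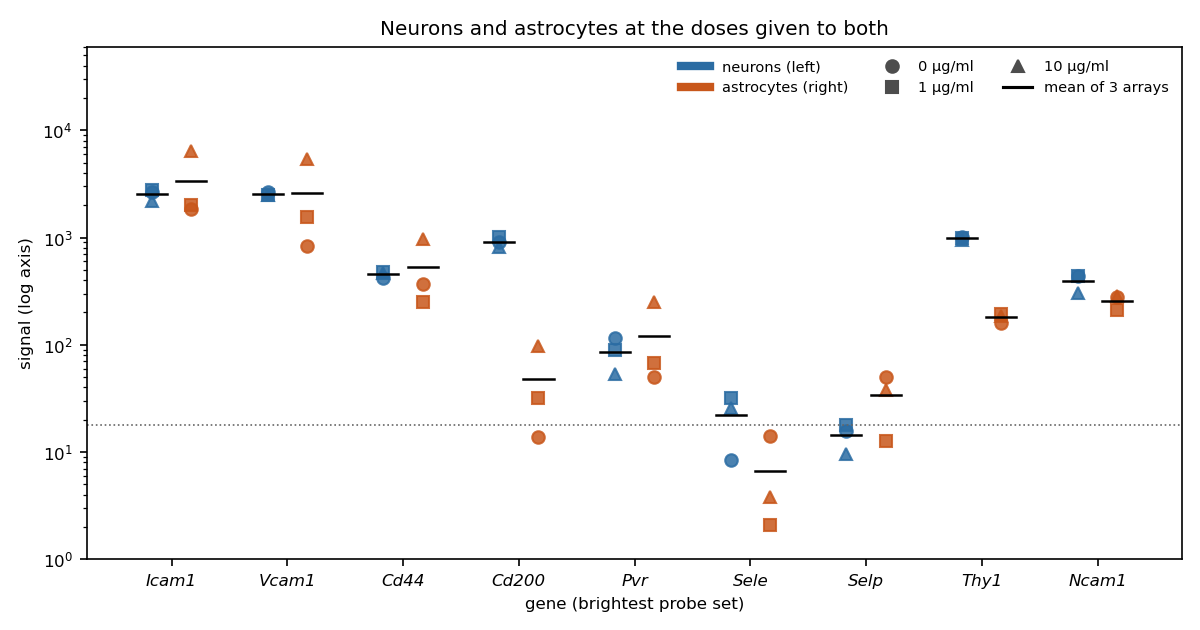
Signal (log axis) of the brightest probe set of each gene in neurons (blue, left) and astrocytes (orange, right) at 0, 1 and 10 µg/ml, with circles, squares and triangles for the doses, a bar at the mean of 3 arrays and a dotted line at the floor of 17.9. Cd200 (916 and 47.8), Thy1 (985 and 180) and, narrowly, Ncam1 (391 and 258) are separated by cell type, while the astrocyte triangles of Icam1, Vcam1, Cd44 and Pvr lie above the neuron points.

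The genes closest to each in profile were found by the root mean square difference of centred log2 signals over the 7 arrays, among 2936 other genes. Closest to Icam1 were Nfkbia, the inhibitor of NF-kB (0.23 log2), Ppp1r15a (0.27) and Cebpb (0.27). Nfkbia had 668, 993, 4036 and 7897 in astrocytes at 0, 1, 10 and 100 µg/ml. Closest to Vcam1 was Cx3cl1, fractalkine, a membrane-bound chemokine that acts as an adhesion molecule and restrains microglia through its receptor (0.21). Cx3cl1 had 726, 1078, 5105 and 1700 in astrocytes and 1879, 1824 and 1935 in neurons, so that it too was highest at 10 µg/ml and nearly level in neurons. Bhlhe40 (0.38) and Flot2 (0.39) followed at a greater distance.

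Closest to Pvr were Junb, an AP-1 subunit (0.37), Cebpb (0.38) and Ppp1r15a (0.39). Closest to Cd44 were Nfkb1 (0.25), Sh2b2 (0.25) and Ptpn23 (0.25). For Thy1 they were Cacna2d1 (0.11), Ddah1 (0.12) and Cnksr2 (0.14), and for Ncam1 Ptprm (0.17), Dhx9 (0.19) and Kif13a (0.20). For Cd200 the 3 closest, Cnr1 (0.49), Ntrk2 (0.71) and Slc32a1 (0.72), were less close than those of any other gene here. Cnksr2 (4.9 to 13.4) and Slc32a1 (7.5 to 15.4) were under the floor on all astrocyte arrays, so their distances depend on the floor. These distances describe 7 arrays and carry no test.

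**Figure D4:**
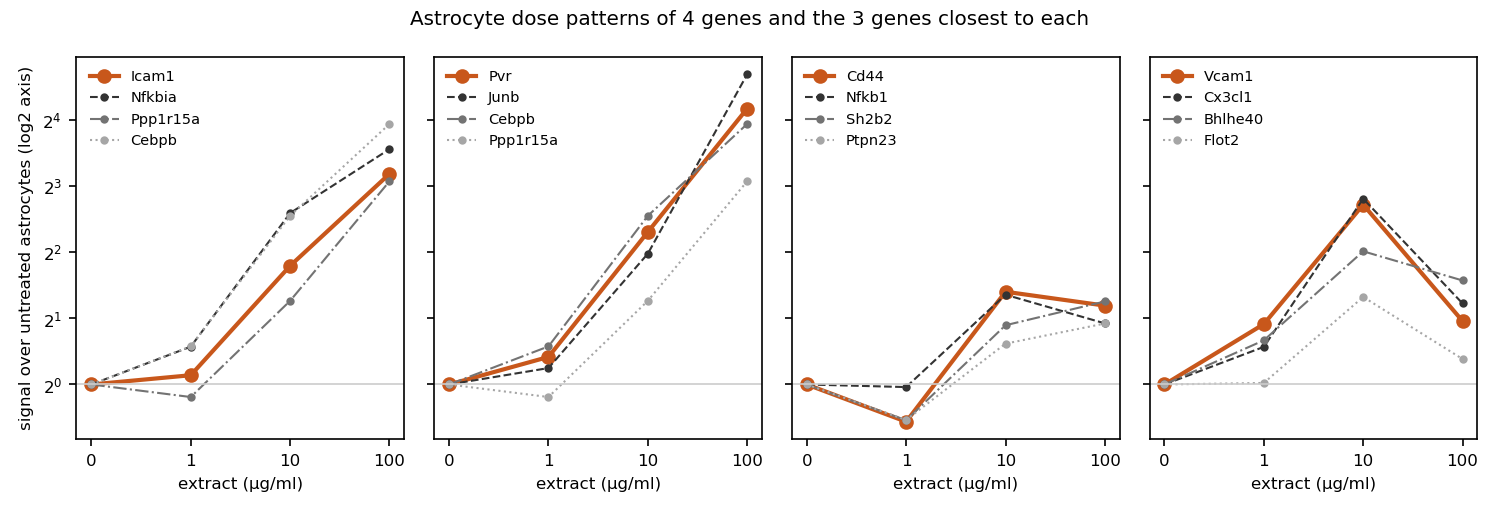
Signal over that of untreated astrocytes (log2 axis) by extract dose in µg/ml for Icam1, Pvr, Cd44 and Vcam1 (orange) and for the 3 genes closest to each in profile over all 7 arrays (grey, dashed to dotted from closest on). Icam1 and Pvr reach 9.12-fold and 18.1-fold at 100 µg/ml, while Vcam1 (6.60-fold) and Cx3cl1 (7.03-fold) peak at 10 µg/ml.

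Among other genes of these pathways, taken from lists of partners, the neural cell adhesion molecules were the group most often higher in neurons. Of 22 listed genes 19 were on the array and 11 were tested, of which 9 were higher in neurons and 1, the myelin protein gene Mag, lower (limma, adjusted p below 0.05, 3 arrays against 3 at shared doses). Over all probe sets 24.9% were higher and 19.7% lower. Their median difference was 1.53 log2, and that of all probe sets 0.07. L1cam, Nrcam, Nrxn3, Opcml and Ntm entered this comparison through the neuron arrays alone, where they were high. The counts and the median of this list are therefore only a description. L1cam, a cell adhesion molecule of axons, had, at 0, 1 and 10 µg/ml, signals of 850, 766 and 893 in neurons and 45.2, 54.0 and 49.1 in astrocytes. The difference in limma was 4.08 log2 (adjusted p = 8.72e-07, with 7.46e-07 to 0.000119 over the alternatives). Ntm, neurotrimin, had 183, 237 and 152 in neurons and 3.9, 13.9 and 2.7 in astrocytes, all under the floor (at least 3.39 log2, limma adjusted p = 1.41e-05, 1.16e-05 to 0.000693). The 6 of them that were bright enough in astrocytes stayed within 2-fold at every dose, and the largest changes relative to the median at 100 µg/ml were 0.64 log2 for the sialyltransferase St8sia3 and -0.53 for Nrxn2, a neurexin.

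Of other immunoglobulin-like adhesion and junction molecules, 10 of 19 were on the array and 6 were tested. Madcam1 was higher in neurons and Alcam, Bsg and Cd9 lower (limma), where 24.9% and 19.7% of all probe sets were. Alcam, which binds CD6 on T cells, had 175, 213 and 193 in neurons and 532, 534 and 347 in astrocytes (-1.26 log2, adjusted p = 0.00160 in limma). With the astrocyte array at 100 µg/ml, where Alcam had 158, the adjusted p was 0.161 in limma, the highest of the alternatives. The lowest was 0.000143. Against untreated astrocytes Alcam stood at -1.49 log2 relative to the median at 100 µg/ml, and it was lower at all 3 probe sets (-1.75 to -1.01 on the deposited scale). Cd9, a tetraspanin that partners integrins, differed by -0.92 log2 (limma adjusted p = 0.000735, 0.000659 to 0.0128).

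Few receptors on the leukocyte side could be read. Of 15 integrins and counter-receptors 5 were on the array and 3 were tested, with 0 called in limma and 0 at an unadjusted p under 0.05. In limma 24.9% of all probe sets were called higher in neurons and 19.7% lower. Itgb1, the beta-1 chain that VLA-4 shares with matrix receptors, had 7612, 5300, 6121 and 6880 in astrocytes at 0, 1, 10 and 100 µg/ml and 6222, 6569 and 6008 in neurons. Glg1, an E-selectin ligand, stood at 0.25 log2 relative to the median at 100 µg/ml. Itgam, the alpha chain of the leukocyte integrin Mac-1, lay between 1.1 and 29.0 on all arrays.

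Among ligands and partners of CD44, 12 of 18 were on the array and 8 were tested, of which 3 were higher in neurons and 2 lower. Hmmr entered through the neuron arrays alone and Srgn through the astrocyte arrays alone, so these counts are only a description. Over all probe sets 24.9% were higher and 19.7% lower. Spp1, osteopontin, had 1627, 1448 and 1520 in neurons and 639, 552 and 624 in astrocytes (1.34 log2, limma adjusted p = 5.46e-05, 4.21e-05 to 0.000852). Srgn, the proteoglycan serglycin of blood cells, had 24.2, 33.6 and 25.4 in neurons and 284, 275 and 207 in astrocytes (-3.20 log2, limma adjusted p = 1.82e-05, 1.22e-05 to 0.00109). With dose, Mmp9, a protease that docks on CD44, had 158, 141, 792 and 3230 in astrocytes, 5.01-fold and 20.4-fold at 10 and 100 µg/ml. Hyal2, a hyaluronidase, had 1182, 863, 1136 and 591, or -0.74 log2 relative to the median at 100 µg/ml.

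In the list of myeloid restraint and receptor genes 11 of 18 genes were on the array and 5 were tested, with 1 higher and 0 lower in neurons in limma, and the same counts at an unadjusted p under 0.05. The 1 was Tgfb2, a growth factor (0.90 log2, limma adjusted p = 0.00390, 0.00219 to 0.0218). Over all probe sets 24.9% were higher in neurons and 19.7% lower in limma. Cx3cl1 was 7.03-fold higher at 10 µg/ml and 2.34-fold at 100 µg/ml in astrocytes, with its 3 probe sets between 0.24 and 1.68 log2 at 100 µg/ml. Sirpa, the receptor of the CD47 signal, had 714, 1015, 1156 and 420 in astrocytes (-0.51 log2 relative to the median at 100 µg/ml). Cd47 itself stayed within 2-fold, at 615, 506, 814 and 754.

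The list of inducing cytokines, their receptors, NF-kB genes and Irf1 was represented by 8 of 15 genes, 7 of them bright enough in astrocytes. It also holds Nfkbia, the inhibitor of NF-kB, so not every gene on it is an inducer of ICAM-1 and VCAM-1. Of these 7, Tnf passed the filter only through its array at 100 µg/ml, since it lay under 79.9 at the lower doses. The dose counts of this list include Tnf and are therefore only a description. At 10 µg/ml 6 were at least 2-fold higher and 1, the TNF receptor gene Tnfrsf1a, lower, with a median of 2.02 log2 where all probe sets had -0.10. Of all probe sets 4.3% were higher and 2.21% lower. At 100 µg/ml 4 of the 7 were higher and 1 lower on the deposited scale, with a median of 3.13 log2, against 6.63% and 19% of all. Relative to the median of all probe sets, 6 were higher, now with Nfkb1 and Irf1, and 0 lower, with a median of 3.39 log2, against 9.41% and 13.5%. Tnf had 33.5, 6.2, 72.4 and 1465 and Il1a 121, 247, 1958 and 9387 at 0, 1, 10 and 100 µg/ml, both highest where Icam1 and Pvr were. Irf1 had 2431, 3305, 12761 and 4720, highest at 10 µg/ml like Vcam1. Of the rest, Il1b and Nfkbia were highest at 100 µg/ml, Nfkb1 at 10 µg/ml and Tnfrsf1a at 1 µg/ml. Any link between these genes and Icam1, Vcam1 or Pvr was not tested. Between cell types 1 of 6 tested was lower in neurons, Il1b (-1.43 log2, limma adjusted p = 0.0396), with 0.00109 to 0.182 over the alternatives. Over all probe sets 19.7% were lower in neurons and 24.9% higher.

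Markers of microglia and macrophages stand beside the astrocyte results, since such cells also carry ICAM-1, CD44 and Cx3cl1's receptor. Of 16 markers 11 were on the array. Their summed signal was 10264 to 13504 on the neuron arrays. On the astrocyte arrays it was 22393, 22608, 21941 and 14256 at 0, 1, 10 and 100 µg/ml. Most of each sum was the lysozyme gene Lyz2, with 15616, 14840, 13383 and 10259 on the astrocyte arrays. Of the 7 markers bright enough in astrocytes, 2 were at least 2-fold higher at 10 µg/ml, Cd53 (2.32-fold) and Fcgr2b (2.49-fold). Of all probe sets 4.3% were, and the median of the 7 was 0.31 log2. At 100 µg/ml 1 was at least 2-fold higher and 2, Aif1 and Ptpn6, lower, where 6.63% and 19% of all probe sets were. The median of the 7 was -0.35 log2 relative to all probe sets. Ptpn6 had 1010, 1122, 1254 and 53.9 at 0, 1, 10 and 100 µg/ml. Its 2 probe sets lay between -4.23 and -4.02 log2 at 100 µg/ml. Cx3cr1, the gene of the Cx3cl1 receptor, had 93.3, 100, 51.2 and 28.3 and did not pass the filter. Aif1 had 1637, 1382, 1426 and 251 at its brightest probe set (its 3 probe sets lay between -2.71 and 0.35 log2 at 100 µg/ml) and C1qb 2722, 3367, 3364 and 1579, while Fcgr2b was highest at 100 µg/ml, at 248, 258, 618 and 1162. Csf1r, a defining receptor of microglia, lay between 7.6 and 29.0 on all arrays. Fibroblast markers (10 of 11 on the array) summed to 16847 to 18763 on the neuron arrays and 43329 to 51076 on the astrocyte arrays, and oligodendrocyte markers (6 of 8) to 684 to 760 on the neuron arrays and 5820 to 7499 on the astrocyte arrays. Lymphocyte and platelet markers (6 of 10) summed to 1479 to 1691 on the neuron arrays and 1074 to 1745 on the astrocyte arrays, with Cd8a at or under the floor on every array. Astrocyte markers (9 of 10) summed to 58796 to 59118 on the neuron arrays and 63200 to 72786 on the astrocyte arrays, the lowest of these at 100 µg/ml. There Slc1a3 had 966, against 3976 in untreated astrocytes, and Aqp4 had 255, against 567 (-1.78 and -0.89 log2 relative to the median). The 4 probe sets of Slc1a3 lay between -2.43 and 0.13 log2 on the deposited scale. S100b, at 6986 against 9085 untreated, stayed within 2-fold at its brightest probe set. The part of any of these cells in the astrocyte changes was not tested.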

How the data were processed

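Total RNA of 7 primary rat cultures was amplified in 2 cycles, labelled with biotin and hybridized to Affymetrix arrays, per the labels' protocols. The authors deposited 1 intensity for each probe set and array, on a linear scale. GCOS is the software named in the submitters' processing notes, and its version is not given in the sources used here. Of 8799 probe sets, 59 controls were left out. Symbols came from the platform annotation: 7006 probe sets had 1, 308 several and 1426 none, and 6985 were found by gene ID in a RefSeq table, with 0 changed. No pair of arrays held identical values (0 pairs).

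Signals were floored at the 25th percentile (17.9) and log2 was taken. Doses were compared as log2 changes between single arrays, counted at 2-fold, with no test. Neurons were compared with astrocytes over 6 arrays at shared doses (4 residual degrees of freedom, 4736 probe sets) with limma 3.58.1 in R 4.3.3 (trended prior, two-sided, Benjamini-Hochberg over all probe sets tested, threshold 0.05), and p-values are printed only for genes outside the 9. They measure the spread between arrays that differ in dose. Data were simulated for that comparison with 4736 probe sets and the same Gaussian noise of 0.201 log2 in each. In them 100 of 100 changes of 1 log2 and 100 of 100 of 2 log2 were recovered, with 18 false calls. Genes that move with dose vary more in the real fit, so this recovery does not extend to them. Il1a, at -0.99 log2 with a standard error of 0.88, was not called.

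The 9 genes, the gene lists and the tests were chosen with earlier results of these data known. From each partner list the 2 genes with the largest change at 100 µg/ml in astrocytes and the 2 with the largest called cell type difference were named, with the 3 genes closest in profile to each of the 7 that passed the signal filter. Others (Cd47, Irf1, Nfkb1, Tnfrsf1a, Itgam, Mag, Madcam1, Bsg and single markers) were chosen after their values were seen. Alternatives tried were other scalings, floors, filters, references, probe set rules, variance priors, a dose block and leaving out each array. Promoters are those of RefSeq's GRCr8. Figures used Python 3.11.15 and matplotlib 3.10.9.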

Additional observations from a re-analysis of the deposited data

Results flagged for a closer look

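In 3 of the 9 genes every treated neuron array moved one way from its untreated array and every treated astrocyte array the other way. No share over all probe sets was set beside this count, so nothing is read from it. These differences between cell types were not tested. For Vcam1 the log2 change at 10 µg/ml in astrocytes minus that in neurons was 2.80 (changes of 2.72 and -0.08), and for Pvr it was 3.41 (2.31 and -1.10). For Thy1 it was 0.28 (0.21 and -0.07). Those of Vcam1 and Thy1 in neurons were small (-0.09 and -0.08, and -0.02 and -0.07 log2 at 1 and 10 µg/ml), and their second probe sets were not lower at both doses in neurons. All doses of a cell type share 1 untreated array.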

How the results depend on the processing

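The labels give no replicate numbers, and the arrays can be paired by dose alone. With dose as a block, the 6 arrays gave 1905 calls between cell types, where the fit without it gave 2113. Without single arrays the count ranged from 1595 to 2286. A filter at the 75th percentile left 1317 calls among 2499 probe sets, and averaging the probe sets of each gene 1237 among 2731 genes. The comparison of untreated arrays alone has no test. In neurons at 10 µg/ml 1 gene reached 2-fold (Pvr), and 0 did after quantile normalization, with a floor at the median signal, or against the mean of both lower doses. In astrocytes at 1 µg/ml, with no signal filter (chosen after seeing the data), 1 of the 9 genes did, Selp, whose signal was then under the floor. At 100 µg/ml against the mean of all lower doses 2 did, where 4 did against the untreated array (3 higher and 1 lower). Of the recomputed values of single genes, 235 moved by less than the spread they were set against (for dose changes 0.26 log2, the SD over probe sets of neurons at 1 µg/ml minus untreated neurons), 27 moved by more and 0 turned a difference of at least 2-fold the other way. For cell type differences the spread was the SD within the cell types over the shared doses, which holds the dose effect. Icam1 went from -0.18 to 0.40 log2 without the astrocyte array at 10 µg/ml and still counted among the 235. The dose block could not change a mean difference between arrays paired by dose. The 235 are thus no measure of how firm the values are. Signals near the floor, those of Sele, Selp and 3 probe sets of Cd44, limit what can be read.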
